A study of Mus musculus with 24 samples.

Results

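Accessible chromatin of germinal center (GC) B cells was described at 10 genes through which B cells receive T-cell help or engage T cells. They were Cd40, Tnfrsf13c, Cd80, Cd86, Icosl, Cd274, Pdcd1lg2, Icam1, Slamf1 and Ly108 (Slamf6 in the annotation). Every ATAC-seq peak that touched a gene body or the 50 kb on either side of it was taken, which gave 147 of the 65483 consensus peaks, or 0.224%. Of these, 9 were promoter peaks, within 1 kb of a transcription start site (TSS) of the gene, and 138 were distal, of which 19 lay at the start of another gene. Because Cd274 and Pdcd1lg2 are neighbors, 12 peaks belonged to both loci.

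GC B cells (CD38-FAS+) were sorted from spleens of mice 10 days after immunization with sheep red blood cells (SRBC), and 60000 live cells per mouse were used for Omni-ATAC, in which a transposase inserts adapters into open DNA. All mice were on a C57BL/6J background and were 8 weeks old. Crebbp and Kmt2d encode a histone acetyltransferase and a histone methyltransferase that act at enhancers. WT mice (n = 4) had both alleles of each gene, C mice (n = 4) were heterozygous for loss of Crebbp, K mice (n = 4) were heterozygous for loss of Kmt2d, and CK mice (n = 5) were heterozygous for loss of both. The targeted alleles were floxed (Crebbp fl/+ and Kmt2d fl/+) and deletion was driven by Cγ1-Cre, which is switched on in B cells as they enter the GC reaction. Mice of each genotype, WT included, carried this Cre allele (Cγ1 cre/+). Cells that escape recombination can remain in the sort. Each mouse gave 1 library, and p-values measure the spread between these mice.

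GC B cells pass between rounds of division and rounds of selection, in which they present antigen to T follicular helper cells and depend on the signals these cells return. CD40 receives the CD40 ligand signal, B7 proteins (CD80 and CD86) and ICOS ligand bind CD28 family receptors, and PD-L1 (Cd274) and PD-L2 (Pdcd1lg2) bind the inhibitory receptor PD-1. ICAM1 and the SLAM family receptors hold the contact between both cells together, and the BAFF receptor (Tnfrsf13c) carries a survival signal. ATAC-seq reads how open the DNA around these genes is, and not how much of their RNA or protein is made.

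Library depth ranged from 17483706 to 21857738 fragments in peaks. The median peak at these loci had 200.4 fragments per library against 85.5 over all peaks. Accessibility is given as CPM, the fragment count scaled to a common library size with TMM factors. All 12 GC B cell marker genes had a promoter peak, whereas Cd3e, Cd3g, Cd4, Cd8a and Cd28 of 8 T cell markers and Itgam and Lyz2 of 7 myeloid or dendritic cell markers had none. The summed promoter signal of the GC B cell markers was 938 to 1042 CPM in WT, 887 to 972 in C, 934 to 963 in K and 858 to 948 in CK, and that of the T cell markers was 56.0 to 60.0 CPM in WT and 54.6 to 63.6 in CK. In bulk libraries, fewer cells with an open site and less accessibility per cell cannot be told apart. Some marker promoters were called, where 2.93% of all genes were called on promoter sums in K and 12.6% in CK. Fcer2a, a naive B cell marker, fell in K (log2 fold change -0.80 ± 0.11, adjusted p = 0.00019) and CK (-0.71 ± 0.10, adjusted p = 2.42e-05). The GC marker Rgs13 fell in CK (-0.33 ± 0.09, adjusted p = 0.00721), and the plasma cell marker Sdc1 rose in CK (0.23 ± 0.06, adjusted p = 0.00749). The promoter sums of WT and CK overlapped for the naive or memory B cell (195 to 212 and 188 to 197 CPM), plasma cell (242 to 254 and 245 to 261 CPM), myeloid or dendritic cell (39.6 to 45.3 and 40.0 to 45.6 CPM), centroblast (398 to 427 and 389 to 420 CPM) and centrocyte markers (431 to 463 and 440 to 495 CPM). On distal sums, 10 of the 47 marker genes fell in CK and 0 rose, where 11.2% of all genes were called: Cd79a and Gcsam of GC B cells, Ccr7 (log2 fold change -0.20, adjusted p = 0.000478) and Cd38 (-0.14, adjusted p = 0.00751) of naive or memory B cells, Itgam (-0.35, adjusted p = 0.000606), Itgax (-0.46, adjusted p = 0.00061) and Adgre1 of myeloid or dendritic cells, Jchain (-0.12, adjusted p = 0.00488) of plasma cells, Egr1 of centrocytes and Cd28 of T cells. Itgam and Itgax also fell in K. The distal sums of every CK mouse lay below those of every WT mouse for the GC B cell (2823 to 3003 against 3005 to 3253 CPM), naive or memory B cell (1297 to 1314 against 1372 to 1438 CPM), centroblast (1070 to 1153 against 1171 to 1264 CPM) and centrocyte (1206 to 1271 against 1284 to 1349 CPM) lists, and overlapped for the other lists. The part of these cell types in the results was not tested. No peak over Crebbp or Kmt2d was called in any mutant genotype (lowest adjusted p = 0.0414), so accessibility gave no check of the genotypes. The mice were described as female. Of the 17 libraries, 9 held between 1087 and 1317 fragments at Y-linked genes and the remaining 8 held at most 1. Libraries with Y fragments numbered 2 of 4 in WT, 2 of 4 in C, 3 of 4 in K and 2 of 5 in CK.

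Sequences at the center of 7 of the called distal peaks are shown, chosen after their values were seen, so that the sites described for 6 of the genes can be read. They were read from GRCm38 on the plus strand, 300 bases each, 5′ to 3′. Capitals mark matches, on either strand, to the cores of SPI1 and SPIB (AGGAAGT), STAT (TTCNNNGAA), interferon response (GAAANNGAA), AP-1 (TGANTCA), octamer (ATGCAAAT), NF-kB (GGANTTTCC), E-box (CAGCTG) and RUNX (TGTGGTT) motifs. The windows are chr1:171786658-171786957 in the Slamf1 gene body, chr1:171827671-171827970 between Slamf1 and Cd84, chr16:36627423-36627722 in a Cd86 intron, chr19:29430636-29430935 in a Pdcd1lg2 intron, chr2:165112304-165112603 in an exon of Cdh22 downstream of Cd40, chr16:38483764-38484063 in a Cd80 intron, and chr15:82232228-82232527 upstream of Tnfrsf13c.
Slamf1 gene body: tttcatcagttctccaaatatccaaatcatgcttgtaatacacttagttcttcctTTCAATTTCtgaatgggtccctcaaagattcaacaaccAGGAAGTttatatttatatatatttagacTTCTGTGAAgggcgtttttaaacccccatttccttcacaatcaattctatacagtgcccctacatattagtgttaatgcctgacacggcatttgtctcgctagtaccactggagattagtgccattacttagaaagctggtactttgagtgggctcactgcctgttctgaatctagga
Slamf1 downstream: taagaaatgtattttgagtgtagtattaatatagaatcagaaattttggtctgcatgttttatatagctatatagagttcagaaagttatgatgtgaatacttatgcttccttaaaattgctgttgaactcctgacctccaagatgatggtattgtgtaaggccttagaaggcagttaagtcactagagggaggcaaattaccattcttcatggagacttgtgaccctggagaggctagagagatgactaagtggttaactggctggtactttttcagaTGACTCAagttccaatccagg
Cd86 intron: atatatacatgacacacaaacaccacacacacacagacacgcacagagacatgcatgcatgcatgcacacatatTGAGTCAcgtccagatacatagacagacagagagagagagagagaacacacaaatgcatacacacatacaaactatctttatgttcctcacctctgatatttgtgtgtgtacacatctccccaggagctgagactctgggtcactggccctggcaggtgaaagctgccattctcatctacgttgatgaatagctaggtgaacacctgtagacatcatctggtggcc
Pdcd1lg2 intron: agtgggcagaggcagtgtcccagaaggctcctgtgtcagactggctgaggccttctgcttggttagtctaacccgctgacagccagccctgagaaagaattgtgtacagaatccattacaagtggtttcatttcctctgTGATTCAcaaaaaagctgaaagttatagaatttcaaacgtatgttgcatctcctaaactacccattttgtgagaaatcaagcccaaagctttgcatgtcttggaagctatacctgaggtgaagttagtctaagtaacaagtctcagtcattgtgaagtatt
Cd40 downstream: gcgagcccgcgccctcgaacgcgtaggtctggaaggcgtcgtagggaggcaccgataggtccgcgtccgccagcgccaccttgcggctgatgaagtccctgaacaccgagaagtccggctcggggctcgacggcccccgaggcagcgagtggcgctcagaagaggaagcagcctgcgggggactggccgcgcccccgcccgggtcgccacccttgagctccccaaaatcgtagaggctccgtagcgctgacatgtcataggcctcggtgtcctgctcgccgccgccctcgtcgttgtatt
Cd80 intron: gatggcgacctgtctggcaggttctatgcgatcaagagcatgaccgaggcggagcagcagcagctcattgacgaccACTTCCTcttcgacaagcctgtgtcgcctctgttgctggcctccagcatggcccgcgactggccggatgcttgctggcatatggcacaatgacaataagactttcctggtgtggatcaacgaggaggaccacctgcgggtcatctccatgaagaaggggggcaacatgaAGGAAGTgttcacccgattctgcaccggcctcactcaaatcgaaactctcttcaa
Tnfrsf13c upstream: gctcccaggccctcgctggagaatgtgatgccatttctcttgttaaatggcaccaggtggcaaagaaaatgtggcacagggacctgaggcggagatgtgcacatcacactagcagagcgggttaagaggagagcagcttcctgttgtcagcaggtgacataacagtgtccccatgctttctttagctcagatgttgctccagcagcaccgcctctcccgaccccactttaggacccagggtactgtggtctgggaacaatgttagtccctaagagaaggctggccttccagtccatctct

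The Slamf1 gene body window held 1 match each for interferon response, SPI1 and SPIB, and STAT, and the Cd80 window held 2 for SPI1 and SPIB. The Slamf1 downstream, Cd86 and Pdcd1lg2 windows each held 1 AP-1 match, and the Cd40 and Tnfrsf13c windows held none of the motifs searched. Such matches are common. In central windows of all 65483 peaks, the SPI1 and SPIB core occurred in 14.2%, the STAT motif in 8.23%, the interferon response motif in 10.6% and the AP-1 motif in 8.93%. In the 147 peaks at these loci the shares were 17.7%, 13.6%, 13.6% and 10.2%. The octamer occurred in 5.44% at these loci and 4.17% of all peaks, and the shares at these loci were lower for the other motifs, with the E-box in 14.97% and 17.2%, the RUNX motif in 6.80% and 8.46% and the NF-kB motif in 0.68% and 1.21%. These shares are descriptions without a test.

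The first comparison asked how many peaks at these loci differed from WT in each mutant genotype. A peak was called when its p from the quasi-likelihood test of edgeR, adjusted by the Benjamini-Hochberg method over the whole table of 65483 peaks, was under 0.01. In C, 0 of the 147 peaks were called (0.16% of all peaks), and 0 also by DESeq2. At an unadjusted p under 0.05 there were 11 in C, which is 7.48% against 8.90% of all peaks. In K, 2 were called, 1 lower and 1 higher, which is 1.36% against 1.48% of all peaks (0.828% lower and 0.647% higher). In CK, 11 were called, which is 7.48% against 6.84% of all peaks. The number called in CK was therefore near the background. Its split by direction was 9 lower (6.12% against 3.3%) and 2 higher (1.36% against 3.54%). This background is not matched: it takes in promoter peaks of all genes, and its median peak had fewer fragments (85.5 against 200.4 per library). Called shares by direction for distal peaks alone are not given here. By sign alone, 57.2% of the 138 distal peaks leaned lower in CK, against 54.6% of all peaks over 1 kb from any TSS. The lean by sign was therefore small.

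The 9 peaks that fell in CK lay at Slamf1 (3 peaks), Tnfrsf13c (2), Cd86 (1), Icam1 (1) and the Cd274 and Pdcd1lg2 neighborhood (2). The 2 that rose lay downstream of Cd40 and upstream of Tnfrsf13c. No promoter peak was among the 11, 4 lay inside the body of one of the 10 genes, and 1 lay at the start of another gene, Sept3. At 10 of the 11 the CK mice did not overlap the WT mice, a separation that the call itself favors. The exception was a peak in Cd84 at the Slamf1 locus. All 11 had the same sign in C and in K. The sign in CK was also the same within libraries with and without Y fragments. At the 10 peaks without overlap this could not have come out otherwise. The log2 fold change was larger in CK than in C at all 11 and larger than in K at 10, although these contrasts share the WT mice. The 11 peaks were also chosen by their values in CK, which favors a larger change in CK than in C or K. The calls depended on GC content and on single mice. When counts were normalized within bins of GC content, 6 peaks at these loci were called in CK, 5 of them among the 11: both falling Tnfrsf13c peaks, the Slamf1 peaks at 19.7 and 60.7 kb, and the peak shared by Cd274 and Pdcd1lg2. Without replicate 4 of WT, 3 peaks were called, namely both falling Tnfrsf13c peaks and the Slamf1 peak at 60.7 kb. Shares of all peaks called in these 2 settings are not given here, so a change particular to these loci cannot be read from the counts. The peaks that rose downstream of Cd40 and at Sept3 had a GC content of 68.4% and 61.6%, against a median of 48.2% over all peaks.

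**Figure D1:**
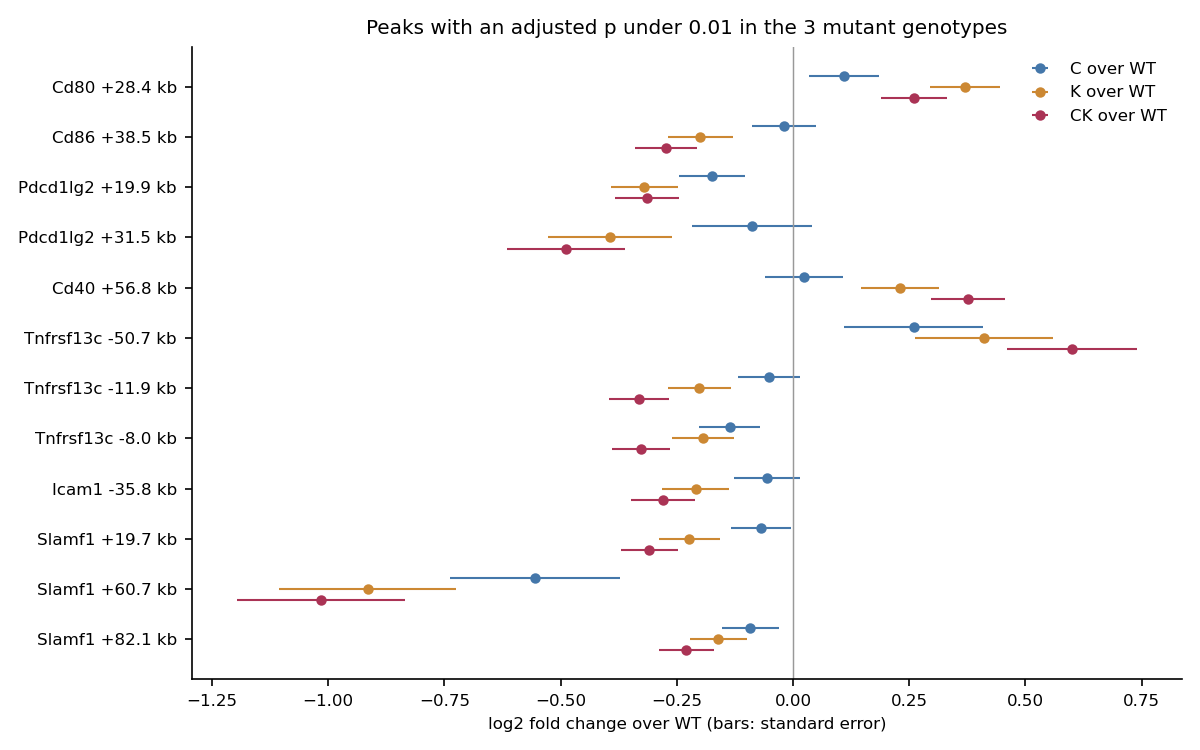
Log2 fold change over WT (x axis, bars are standard errors) of each peak with an adjusted p under 0.01, in C, K and CK. The value for C lies nearest to 0 at each peak called in CK, and the largest change is the fall of the intergenic peak downstream of Slamf1, -0.55 in C, -0.91 in K and -1.02 in CK.

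Over the 119 distal peaks that lay at no gene start, the median log2 fold change for C, K and CK was -0.01, -0.06 and -0.07, where all peaks over 1 kb from any TSS had 0.01, -0.03 and -0.03. With the 19 peaks at other starts included, it was -0.01, -0.04 and -0.05. Every CK mouse lay below every WT mouse at 15 of the 147 peaks (10.2% against 6.39% of all peaks) and above at 8 (5.44% against 6.59%). Here too the background of all peaks includes promoter peaks and is not matched.

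Among the receptors, Cd40 (chromosome 2, 165055627 to 165072948, plus strand) had 13 peaks and gained distal accessibility in CK. Its 12 distal peaks summed to 140, 140, 130 and 127 CPM in the WT mice, 138, 132, 136 and 128 CPM in C, 156, 142, 143 and 145 CPM in K, and 152, 149, 149, 152 and 154 CPM in CK. All CK mice and all K mice lay above all WT mice, whereas the C mice overlapped them. In CK the sum exceeded that of WT by 0.17 ± 0.04 (log2 fold change ± SE, adjusted p = 0.00133) and that of C by 0.18 ± 0.03 (adjusted p = 0.00391), in a fit over the distal sums of 17699 genes in which 11.2% and 3.07% were called. In K the difference from WT was 0.13 ± 0.04 and was not called (adjusted p = 0.0345, with 2.54% of genes called). Within 25 kb of the gene the difference in CK was 0.08 (adjusted p = 0.137).

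Over the 12 distal peaks of Cd40 the median log2 fold change in CK was 0.16, and 3 of the 12 were lower. The only peak called lay far downstream of the gene. This peak, at 56.8 kb from the gene start (chr2:165112091-165112818), lay over an exon of Cdh22, which encodes a cadherin. It had 23.3, 20.7, 17.2 and 16.9 CPM in WT and 26.7, 25.6, 24.6, 24.0 and 25.9 CPM in CK. The C mice lay between 19.4 and 20.2 CPM and the K mice between 21.5 and 25.6 CPM, so that only the CK mice were clear of WT. The peak rose by a log2 fold change of 0.38 ± 0.08 in CK against WT (adjusted p = 0.00215) and by 0.35 ± 0.08 against C (adjusted p = 0.009), the only peak of the 147 called between CK and C (1.68% of all peaks). Within GC content bins the change against WT was 0.19 (adjusted p = 0.0549), and it was no longer called against C. An intergenic peak at 51.4 kb was also higher in every CK mouse than in every WT mouse, with 0.34 ± 0.10 (adjusted p = 0.0189). The promoter peak of Cd40 held 68.1, 62.0, 56.8 and 58.0 CPM in WT and 63.5, 61.0, 56.6, 56.0 and 57.6 CPM in CK, and the groups overlapped (log2 fold change -0.05 ± 0.05, adjusted p = 0.506).

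Tnfrsf13c (chromosome 15, 82221743 to 82224369, minus strand) had 21 peaks and changed in both directions. The peak at -8.01 kb (chr15:82231558-82233198), upstream of the gene, held 61.2, 63.5, 61.2 and 68.3 CPM in WT, 58.4, 57.2, 52.9 and 62.8 CPM in C, 55.3, 51.7, 53.7 and 61.2 CPM in K, and 49.9, 44.2, 49.9, 52.2 and 57.2 CPM in CK. The CK mice all lay below the WT mice, while the C mice overlapped them. On the log2 scale it fell by 0.33 ± 0.06 in CK (adjusted p = 0.00098), against -0.19 ± 0.07 in K (adjusted p = 0.0845) and -0.14 ± 0.07 in C (adjusted p = 0.558).

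The next peak upstream, at -11.9 kb in an intron of the centromere protein gene Cenpm, held between 25.9 and 30.8 CPM in WT and between 20.7 and 25.7 CPM in CK. It fell by 0.33 ± 0.06 in CK (adjusted p = 0.00108). The peak at 5.31 kb was the most accessible distal peak of the locus in WT, with 75.3 ± 1.36 CPM (SD, n = 4), and had 67.1 ± 2.49 CPM (SD, n = 5) in CK, all CK mice below all WT mice, but was not called (adjusted p = 0.0127). In the other direction, the peak at -50.7 kb at the start of Sept3, a septin gene (chr15:82274295-82275758), rose from 3.51, 3.76, 2.86 and 3.10 CPM in WT to 4.97, 4.85, 6.44, 4.88 and 3.80 CPM in CK (0.60 ± 0.14, adjusted p = 0.00473).

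The summed distal signal of Tnfrsf13c was not called, at 336 ± 10.2 CPM (SD, n = 4) in WT and 314 ± 11.8 CPM (SD, n = 5) in CK (-0.10 ± 0.04, adjusted p = 0.0456). With the peaks at the starts of neighboring genes left out, the difference was -0.18 (adjusted p = 0.00456). The promoter peak held 73.1 ± 4.27 CPM (SD, n = 4) in WT and 69.7 ± 2.65 CPM (SD, n = 5) in CK and was not called (adjusted p = 0.252).

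**Figure D2:**
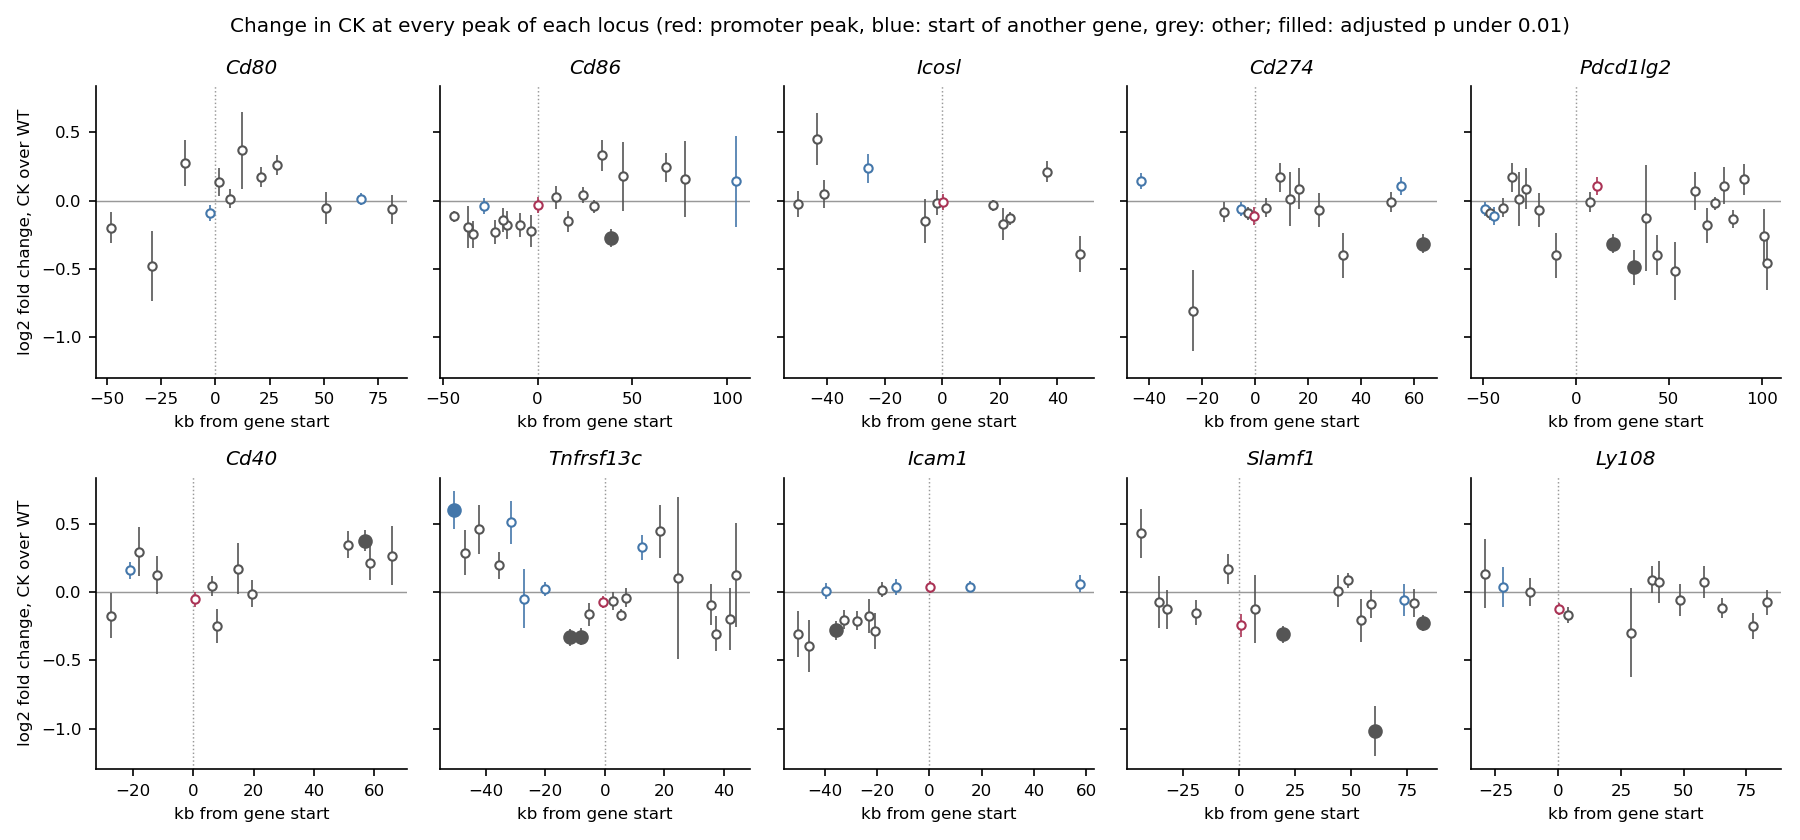
Log2 fold change of CK over WT with its standard error (y axis) at each peak, by its distance in kb from the start of the gene (x axis), 1 panel per gene. Red is the promoter peak, blue a peak at the start of another gene and grey any other peak, and filled points have an adjusted p under 0.01. No promoter peak is filled, the lowest being that of Slamf1 at -0.24, the filled points at Slamf1, Cd86, Icam1, Cd274 and Pdcd1lg2 lie below 0, and those at Tnfrsf13c lie on both sides.

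Among the ligands, the B7 genes Cd80 and Cd86 differed in their calls. Cd86 (chromosome 16, 36603869 to 36666081, minus strand), which encodes the B7 protein that B cells raise on activation, had 20 peaks. An intronic peak at 38.5 kb (chr16:36626597-36628549) held 24.0, 24.9, 24.5 and 28.1 CPM in WT, 23.5, 23.5, 25.6 and 27.7 CPM in C, 20.8, 21.3, 22.5 and 23.6 CPM in K, and 20.5, 20.03, 21.1, 21.3 and 22.01 CPM in CK. Each K and CK mouse lay below the WT range, and 2 of the 4 C mice lay just below it. It fell by 0.27 ± 0.07 in CK (adjusted p = 0.00674), with -0.20 ± 0.07 in K (adjusted p = 0.0952) and -0.02 ± 0.07 in C (adjusted p = 0.966).

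The remaining peaks of Cd86 were not called in CK. The most accessible one, at -44.0 kb over an exon of the neighboring gene Ildr1, held 127 ± 3.91 CPM (SD, n = 4) in WT and 117 ± 2.05 CPM (SD, n = 5) in CK (adjusted p = 0.054), without overlap. A weaker intronic peak at 33.9 kb, near the peak that fell, had 0.33 ± 0.11 (adjusted p = 0.0463), with every CK mouse above every WT mouse. The distal sum was 514 ± 15.1 CPM (SD, n = 4) in WT and 492 ± 6.60 CPM (SD, n = 5) in CK (-0.06 ± 0.03, adjusted p = 0.174), and the promoter peak 27.8 ± 0.961 and 27.2 ± 1.55 CPM (adjusted p = 0.734).

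Cd80 (chromosome 16, 38455561 to 38496335, plus strand) had 12 peaks and no peak within 1 kb of its TSS. An intronic peak at 28.4 kb (chr16:38482796-38485032) held 21.3, 22.4, 20.8 and 17.7 CPM in WT, 28.7, 27.6, 25.6 and 24.5 CPM in K, and 23.5, 25.04, 24.99, 24.2 and 25.5 CPM in CK. The K and the CK mice lay above all WT mice, and the C mice, between 20.6 and 24.2 CPM, overlapped them. The peak rose by 0.37 ± 0.07 in K (adjusted p = 0.00522), and the difference in CK was 0.26 ± 0.07 (adjusted p = 0.0144). The distal sum of Cd80 was 234 ± 2.16 CPM (SD, n = 4) in WT, 247 ± 7.89 CPM (SD, n = 4) in K and 240 ± 10.2 CPM (SD, n = 5) in CK, and was called in neither.

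Icosl (chromosome 10, 78069302 to 78083913, plus strand), which encodes the ligand of ICOS, had 12 peaks, of which 0 were called in any mutant genotype. Its most accessible distal peak, at 17.5 kb, held between 76.0 and 85.6 CPM in WT and between 75.9 and 81.6 CPM in CK. The peak with the lowest p in CK was a weak intergenic one at 47.7 kb, with 5.16, 5.33, 5.67 and 5.48 CPM in WT and 4.09, 3.28, 5.25, 3.79 and 4.15 CPM in CK. Only replicate 3 of CK overlapped WT, and the difference of -0.39 ± 0.13 was not called (adjusted p = 0.0435).

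PD-L1 and PD-L2 are encoded next to each other on chromosome 19, by Cd274 (29367455 to 29388095) and Pdcd1lg2 (29410919 to 29471161), both on the plus strand. A wide peak in an intron of Pdcd1lg2 (chr19:29429079-29432493), 19.9 kb from the start of Pdcd1lg2 and 63.3 kb from that of Cd274, belonged to both loci. It held 54.6, 50.4, 52.3 and 61.7 CPM in WT, 46.5, 48.4, 45.4 and 53.9 CPM in C, 40.8, 41.9, 45.6 and 46.9 CPM in K, and 43.2, 49.9, 41.3, 39.5 and 46.4 CPM in CK. Each K and CK mouse lay below the WT range. The peak fell by 0.31 ± 0.07 in CK (adjusted p = 0.00274), and the difference in K was of like size but was not called (-0.32 ± 0.07, adjusted p = 0.0102).

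Another Pdcd1lg2 intron peak, at 31.5 kb (chr19:29441547-29443314), fell by 0.49 ± 0.13 in CK at an adjusted p that rounds to the threshold (adjusted p = 0.01), from 7.45, 7.21, 6.42 and 9.14 CPM in WT to 6.40, 5.28, 5.06, 5.23 and 4.84 CPM. Every CK mouse was below every WT mouse, the closest pair being 6.40 and 6.42 CPM. The most accessible distal peak of the locus, at 75.0 kb, was 115 ± 5.99 CPM (SD, n = 4) in WT and 114 ± 6.05 CPM (SD, n = 5) in CK. Neither promoter peak was called, with -0.11 ± 0.06 at Cd274 (adjusted p = 0.196) and 0.11 ± 0.06 at Pdcd1lg2 (adjusted p = 0.242), where the peak lay at the start of an internal transcript and none lay at the 5′ end of the gene.

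**Figure D3:**
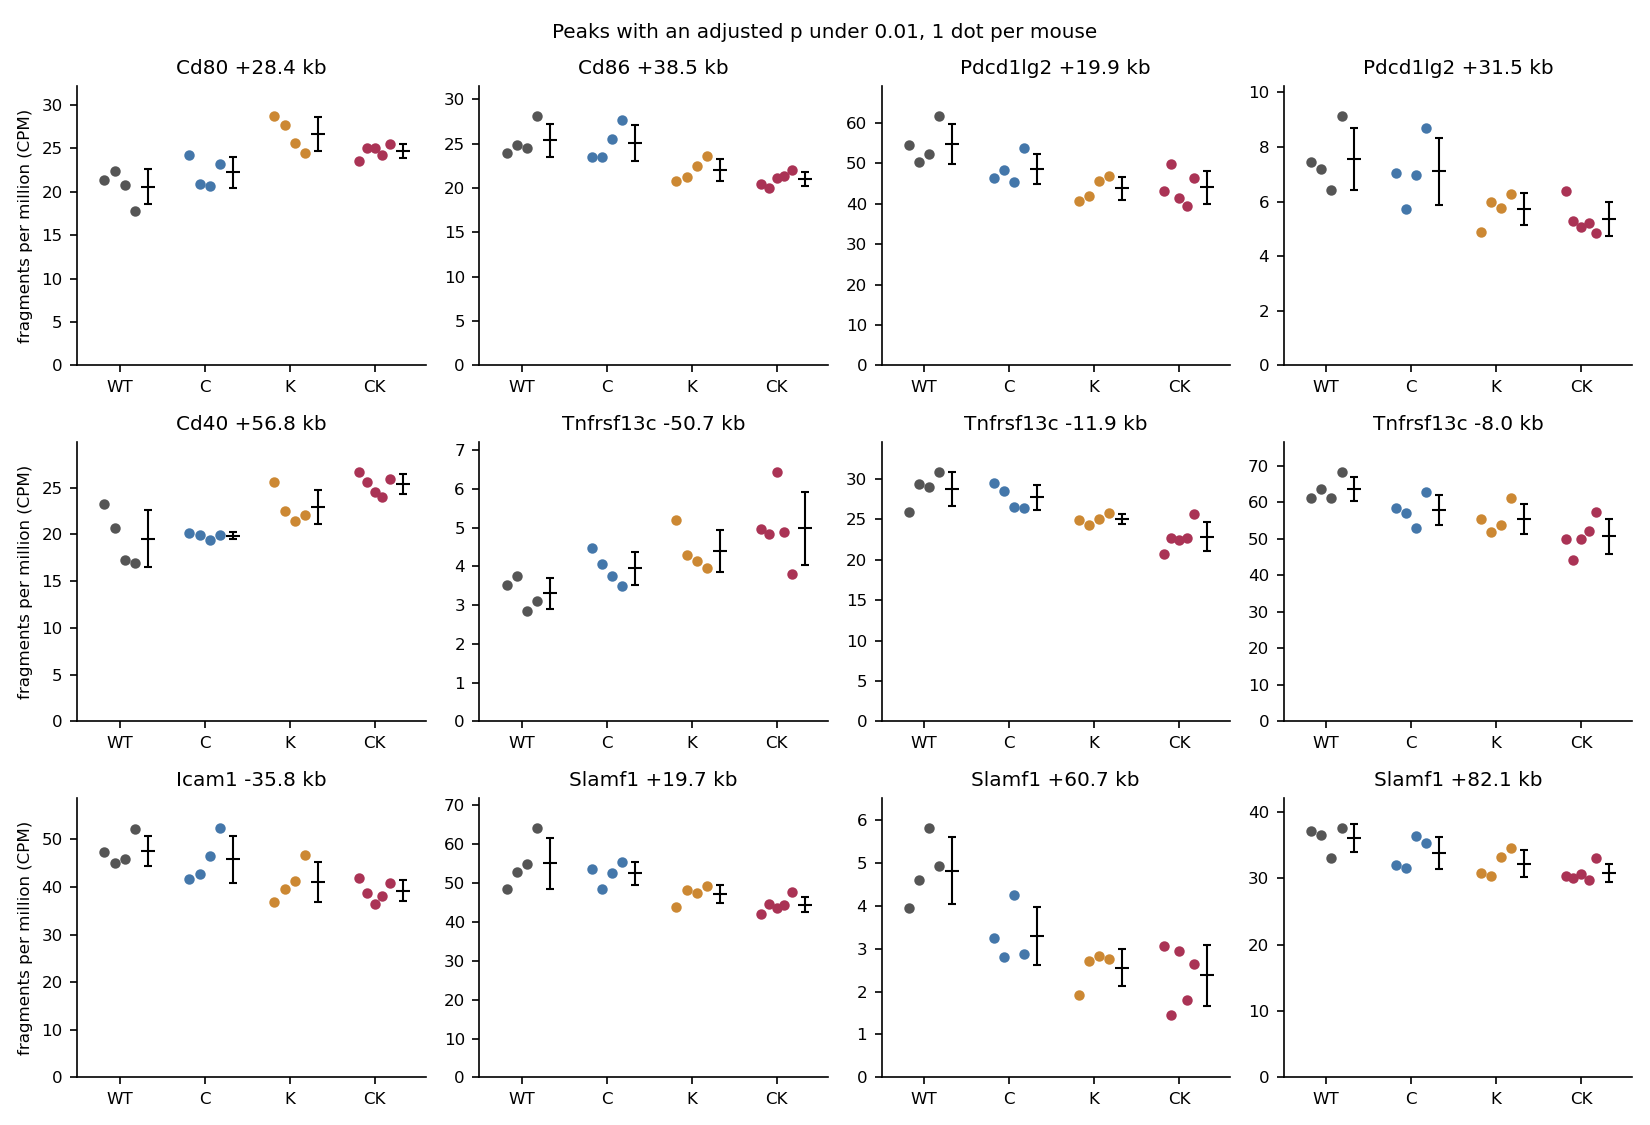
Accessibility in CPM (y axis) of each peak with an adjusted p under 0.01 in K or CK, with 1 dot per mouse and the mean and SD in black, for WT, C, K and CK. The CK dots lie clear of the WT dots at every peak except the one at 82.1 kb of Slamf1, which lies in Cd84.

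Among adhesion and SLAM family genes, Slamf1 (chromosome 1, 171767127 to 171801184, plus strand), which encodes a self-binding receptor on B and T cells, had 3 of the 9 peaks that fell. Its 15 distal peaks summed to 176, 180, 184 and 200 CPM in WT, 178, 172, 186 and 190 CPM in C, 158, 165, 171 and 170 CPM in K, and 159, 168, 172, 164 and 169 CPM in CK. Each K and CK mouse lay below the WT range. The sum fell by 0.15 ± 0.04 in CK (adjusted p = 0.0055), and with Cd40 it was 1 of 2 of the 10 genes whose distal sum was called in CK. The difference in K, -0.16 ± 0.04, was not called (adjusted p = 0.0176). The call in CK was lost without replicate 3 of WT (adjusted p = 0.0139), replicate 4 of WT (0.038), replicate 1 of CK (0.0182) or replicate 4 of CK (0.0141), with the direction kept.

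The peak with the largest change at any of the 10 loci was a short intergenic one at 60.7 kb (chr1:171827610-171828032), between Slamf1 and Cd84. It held 3.94, 4.60, 5.81 and 4.93 CPM in WT, 3.26, 2.80, 4.25 and 2.87 CPM in C, 1.91, 2.72, 2.83 and 2.77 CPM in K, and 3.05, 1.45, 2.93, 1.79 and 2.65 CPM in CK. Each K and CK mouse lay below the WT range and the C mice overlapped WT. On the log2 scale it fell by 0.91 ± 0.19 in K (adjusted p = 0.00637) and by 1.02 ± 0.18 in CK (adjusted p = 0.000509), with -0.55 ± 0.18 in C (adjusted p = 0.279).

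The peak at 19.7 kb in the gene body (chr1:171785421-171788195) was the most accessible distal peak of the locus in WT. It held 48.5, 52.8, 54.8 and 64.2 CPM in WT and 42.1, 44.7, 43.5, 44.4 and 47.6 CPM in CK, without overlap, and fell by 0.31 ± 0.06 (adjusted p = 0.00152). The peak at 82.1 kb lay in an intron of Cd84, another SLAM family gene (chr1:171848420-171849986), and fell from 36.0 ± 2.06 CPM (SD, n = 4) to 30.7 ± 1.33 CPM (SD, n = 5), with -0.23 ± 0.06 (adjusted p = 0.00945). Replicate 3 of WT held 32.99 CPM and replicate 5 of CK 33.01 CPM there, so the groups overlapped. The promoter peak of Slamf1 was 19.3 ± 2.23 CPM (SD, n = 4) in WT and 16.3 ± 0.83 CPM (SD, n = 5) in CK and was not called (-0.24 ± 0.08, adjusted p = 0.0332).

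Ly108 (chromosome 1, 171917515 to 171953170, plus strand), the SLAM family receptor next to Cd84, had 13 peaks and 0 called in any mutant genotype. Its promoter peak was strongly accessible, with 124 ± 5.16 CPM (SD, n = 4) in WT and 114 ± 6.34 CPM (SD, n = 5) in CK (-0.13 ± 0.04, adjusted p = 0.0315). An intronic peak at 3.72 kb held 35.1, 36.0, 34.9 and 40.9 CPM in WT and 33.9, 32.8, 30.5, 31.7 and 34.2 CPM in CK, without overlap, and was not called (adjusted p = 0.0525).

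Icam1 (chromosome 9, 21015985 to 21028817, plus strand), the ligand of the integrin LFA-1, had 13 peaks. An intergenic peak at -35.8 kb (chr9:20979687-20980597), closer to S1pr2, which encodes a receptor that keeps B cells in the GC, held 47.3, 45.0, 45.9 and 52.1 CPM in WT and 41.9, 38.8, 36.4, 38.2 and 40.7 CPM in CK. No CK mouse reached the lowest WT mouse, whereas the C and K mice, between 41.6 and 52.4 CPM and between 36.8 and 46.6 CPM, overlapped WT. It fell by 0.28 ± 0.07 in CK (adjusted p = 0.00725). A peak at -27.8 kb also lay lower in every CK mouse but was not called (-0.21 ± 0.07, adjusted p = 0.0351), and the promoter peak was 85.4 ± 3.42 CPM (SD, n = 4) in WT and 87.6 ± 1.89 CPM (SD, n = 5) in CK (adjusted p = 0.569).

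**Figure D4:**
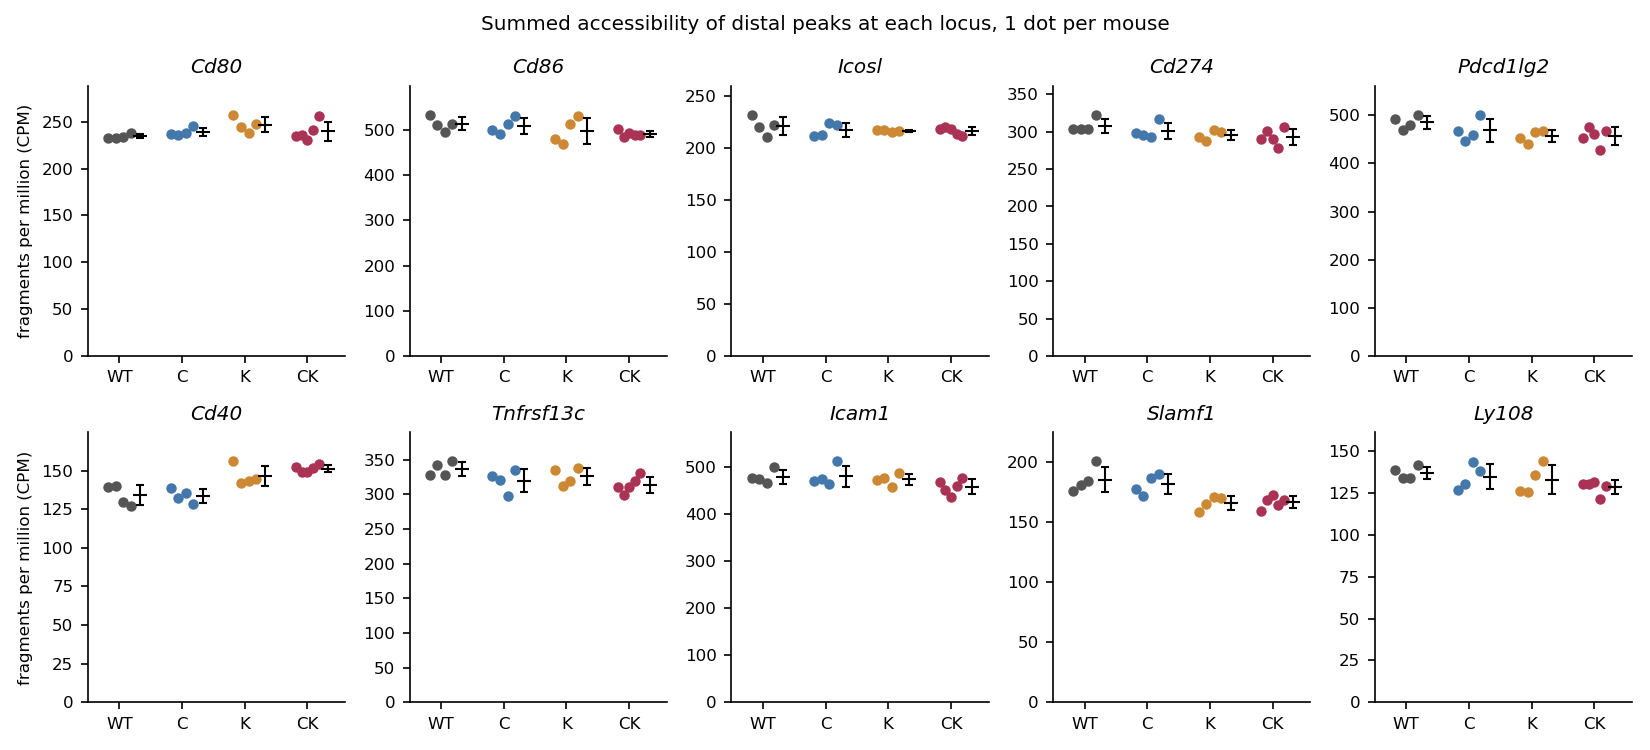
Summed accessibility of the distal peaks of each gene in CPM (y axis, from 0), 1 dot per mouse with the mean and SD in black, for WT, C, K and CK. The CK mice lie above the WT mice at Cd40 and below them at Slamf1 and Ly108, and overlap them at the other genes. The sum of Ly108 was not called in CK (adjusted p = 0.12 by edgeR). The share of all genes whose distal sums separate in this way is not given here.

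No promoter peak of the 10 genes was called in any genotype. Of the 9 genes with one, 0 were called in C (0.11% of 13649 genes with promoter peaks), K (2.93%) or CK (12.6%) by edgeR and 0 by DESeq2, with 0, 1 and 2 at an unadjusted p under 0.05, and the lowest adjusted p in CK was 0.0315. Their median log2 fold change in CK was -0.05, against 0.06 for all genes. For distal sums the counts were 0 of 10 in C (0.452% of genes), 0 in K (2.54%) and 2 in CK (11.2%). At an unadjusted p under 0.05 there were 0 in C and 4 in K, and DESeq2 called 0 in C and 1 in K. The median of the distal sums in CK was -0.07 against 0.02 for all genes. For promoter and distal sums, shares of all genes at an unadjusted p under 0.05 are not given here. The counts at that level therefore have no background.

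**Figure D5:**
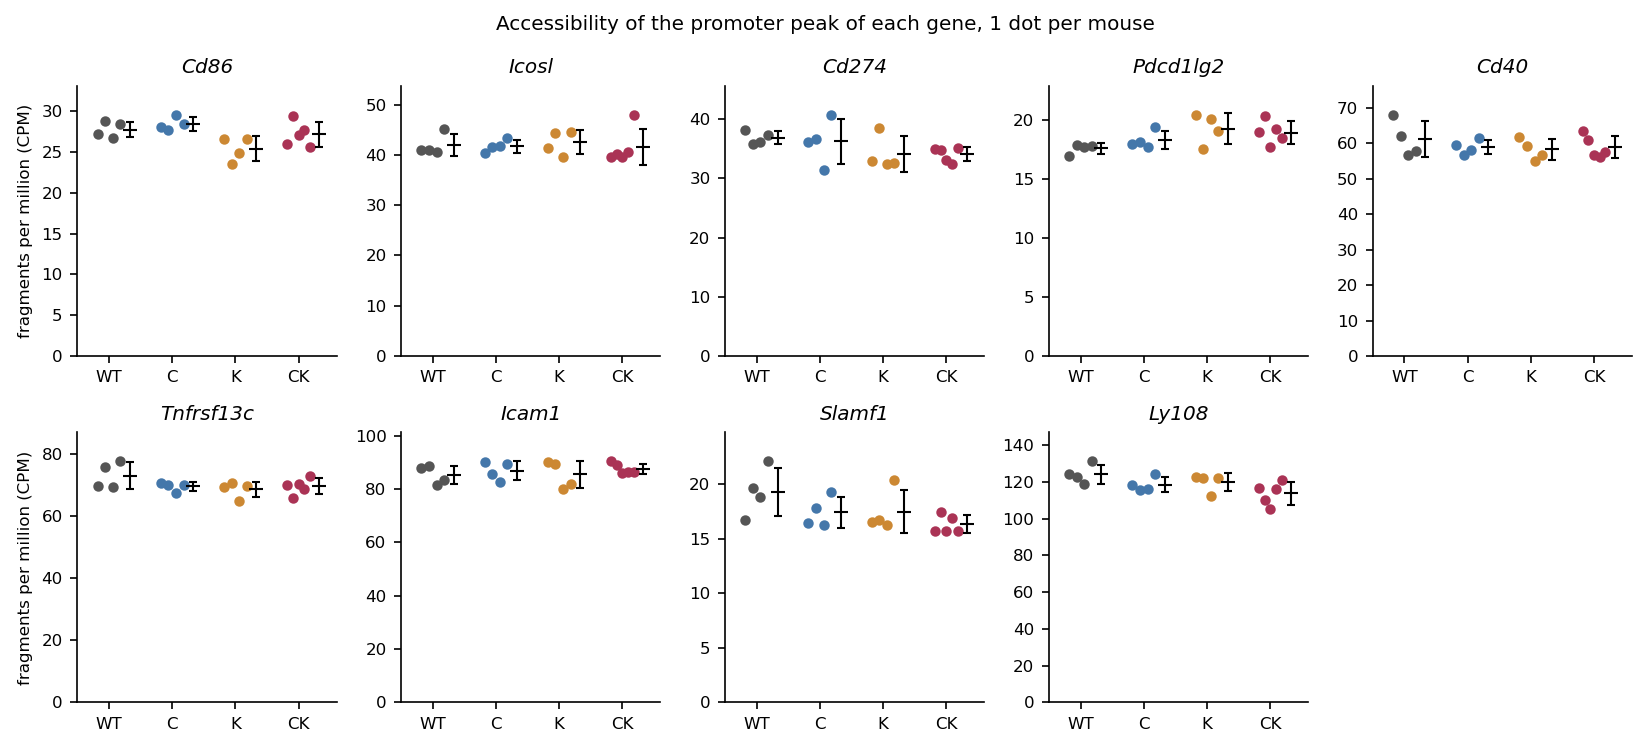
Accessibility of the promoter peak of each of the 9 genes that have one, in CPM (y axis, from 0), with 1 dot per mouse and the mean and SD in black. WT and CK mice overlap at every gene except Cd274, where the CK mice lie between 32.5 and 35.2 CPM and the WT mice between 35.9 and 38.2 CPM. The share of all genes whose promoter sums separate in this way is not given here.

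The second comparison asked whether loss of both genes differed from loss of a single gene. Between CK and K, 0 of the 147 peaks were called by edgeR (0.00916% of all peaks) and 0 by DESeq2. The 6 peaks at an unadjusted p under 0.05 were 4.08%, against 7.35% of all peaks. For sums, 0 distal (0% of genes) and 0 promoter sums (0.00733%) were called, with 0 of either at an unadjusted p under 0.05. Between CK and C, 1 peak and 1 distal sum were called, both at Cd40, and 0 promoter sums (7.54% of genes), none at an unadjusted p under 0.05. Against what C and K changes would add up to on the log2 scale, 0 peaks were called in CK (0.0107% of all peaks) and 0 by DESeq2. At an unadjusted p under 0.05 there were 4, which is 2.72% against 3.73% of all peaks. A departure from additivity was not detected at these loci, which does not show that there is none.

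Another 36 genes of the same interface were taken as 4 lists of ligands, adhesion and SLAM family genes, TNF receptors, signaling genes below CD40 and the BAFF receptor, and partners on T cells. On distal sums, 5 of the 36 fell in CK and 0 rose, where 11.2% of all genes were called. Of the 18 ligands, adhesion and SLAM family genes, 3 fell: Nectin2, which binds T-cell receptors of the CD226 family (-0.14 ± 0.03, adjusted p = 0.00103), Cd84 (-0.12 ± 0.03, adjusted p = 0.00936) and Tnfsf9, the 4-1BB ligand (-0.12 ± 0.03, adjusted p = 0.00941). The window of Cd84 overlaps that of Slamf1. Of the 6 partners on T cells, Cd40lg (-0.42 ± 0.07, adjusted p = 0.000264) and Cd28 (-0.30 ± 0.06, adjusted p = 0.000897) fell, and Cd40lg also fell in K (-0.38 ± 0.08, adjusted p = 0.0043), the only call in K. The log2 ratio of CK over WT at Cd40lg was -0.38 within libraries with Y fragments and -0.49 within those without. The part of the uneven mix of such libraries in the values of Cd40lg was not tested.

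Cd28 has no promoter peak in these libraries, and the part of T cells in the fall of Cd40lg and Cd28 was not tested. In C, 0 of the 36 were called on distal sums. Of the 4 TNF receptors and 8 signaling genes, 0 were called on distal sums in any genotype. On promoter sums, which 30 of the 36 had, 2 rose in CK, where 12.6% of all genes were called, and 0 were called in C or K. These were Lgals9, which encodes galectin-9, with 8.10 ± 0.709 CPM (SD, n = 4) in WT and 12.2 ± 1.85 CPM (SD, n = 5) in CK (0.59 ± 0.12, adjusted p = 0.0011), and Vsir, which encodes the inhibitory ligand VISTA, with 27.3 ± 1.86 and 33.9 ± 2.01 CPM (0.31 ± 0.06, adjusted p = 0.000399). At both genes every CK mouse lay above every WT mouse, a separation that the call itself favors.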

How the data were processed

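ATAC-seq libraries of GC B cells from 17 mice were analysed. The authors processed reads and aligned them to mm10 with the nf-core ATAC-seq pipeline (version 1.2.1), called consensus peaks over all libraries, and deposited raw counts of fragments per peak from featureCounts (version 2.0.1), without normalization. A fragment could be counted in more than 1 peak. No value column was left out, and the sorted centroblast and centrocyte samples were not analysed here.

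Genes came from GENCODE on GRCm38. Counts of all 65483 peaks (all with at least 10 counts) were normalized by TMM in edgeR 4.0.16 (R 4.3.3) and fitted together with 1 coefficient per genotype and no covariate. Each contrast used edgeR's quasi-likelihood test, with p-values adjusted by the Benjamini-Hochberg method and a threshold of 0.01. Counts of the distal and of the promoter peaks of each protein-coding gene were also summed and fitted the same way. Named peaks were all those called in any genotype, the most accessible distal peak in WT of each locus, and the lowest p at a locus with none called. The most accessible distal peaks of Cd40, Cd80, Cd274 and Icam1 are not described here. The Cd40 peak at 51.4 kb, the Cd86 peak at 33.9 kb and the Icam1 peak at -27.8 kb were named after their values were seen. The genes, lists and tests were chosen with earlier results of these data known. The sequence of 1 called peak is not reported here. The fits were tested on simulated data. None of the 28 pairs of libraries of the same genotype agreed within sampling noise. Alternatives included DESeq2 1.42.0, other normalizations, windows of 25 and 100 kb, a block for the replicate number and leaving out each mouse. A covariate for Y-linked gene signal and values within libraries with and without Y fragments were added after seeing the data.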

Additional observations from a re-analysis of the deposited data

Results flagged for a closer look

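Of 164 groups of mice examined at named peaks and summed signals, 13 had a single mouse far from the others of its genotype by Dixon's test, and chance flags about 1 in 20 groups. For distal sums, these were replicate 4 of WT at Cd80 (238 CPM, the others between 233 and 234) and at Cd274 (322 CPM, the others between 303 and 304), and replicate 4 of CK at Ly108 (121 CPM, the others between 129 and 132). For promoter peaks, these were replicate 4 of WT (45.2 CPM) and replicate 5 of CK (48.0 CPM) at Icosl, replicate 2 of K at Cd274 (38.6 CPM), replicate 4 of K at Slamf1 (20.4 CPM) and replicate 3 of K at Ly108 (112 CPM). For single peaks, they were replicate 4 of C at the Cd86 peak at -44.0 kb (130.4 CPM), replicate 1 of CK at the Pdcd1lg2 peak at 31.5 kb (6.40 CPM), replicate 1 of K at the Slamf1 peak at 60.7 kb (1.91 CPM), replicate 5 of CK at the Slamf1 peak at 82.1 kb (33.01 CPM) and replicate 3 of WT at the Tnfrsf13c peak at 5.31 kb (73.3 CPM).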

How the results depend on the processing

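The number of peaks called at these loci was sensitive to the processing, while the direction of each called peak was kept under every alternative run. Shares of all peaks or genes called under each alternative are not given here. The counts below therefore have no background. In CK against WT (11 peaks), 6 were called with GC content bins, 1 with the share of Y chromosome fragments as a covariate, 13 with Y-linked gene signal as a covariate, chosen after seeing the data (all 11 among them), 7 with only the genotypes compared in the fit, 19 at an adjusted p of 0.05, 2 with a fold change above 1.5 and 6 within 25 kb, and between 3 and 12 when 1 mouse was left out: 7 without replicate 3 of WT, 3 without replicate 4 of WT, and 6 without replicate 3 or replicate 4 of CK. In K against WT (2 peaks), 4 were called by DESeq2, 1 with GC content bins, the Y share covariate, the fold change limit or within 25 kb, 7 at an adjusted p of 0.05, and between 0 and 3 without 1 mouse, with 0 without replicate 3 or 4 of WT or replicate 1 or 2 of K. In CK against C (1 peak), 3 were called by DESeq2, 2 with library totals, 5 with a covariate for Y-linked gene signal, 7 at an adjusted p of 0.05, 0 with DESeq2's size factors, GC content bins, the Y share covariate, the fold change limit or within 25 kb, and between 0 and 3 without 1 mouse. The Y share also counts fragments in libraries without Y-linked gene signal, with the highest share, 0.101%, in replicate 4 of C, which had 1 fragment at Y-linked genes. Distal sums called in K (0) became 1 by DESeq2 and 2 at an adjusted p of 0.05. Those called in CK (2) became 1 with library totals or the Y share covariate, 0 within 25 kb or with the fold change limit, 3 at an adjusted p of 0.05 or without the starts of neighboring genes, and 1 or 2 without 1 mouse. Promoter sums called in CK (0) became 2 at an adjusted p of 0.05 and 0 or 1 without 1 mouse. The causes were not tested.

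Mice of different genotypes share replicate numbers, and no label says that a number marks a shared litter, batch or day. Same-numbered mice deviated together in part: the median correlation of their deviations was 0.10, against -0.02 for other pairs, and 13 of 24 pairs were over 0.1, but not every pair was (lowest -0.08), and 7 of 16 libraries were closest to their own number. The numbers were therefore not taken as a pairing. With a replicate block, 6 peaks were called in K, 15 in CK (10 of the 11 among them) and 7 in CK against C, 2 distal sums in K, 3 distal sums in CK, and 2 promoter sums in CK. Shares of all peaks or genes with this block are not given here either.

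Values near 0 changed sign. The distal sum in CK was -0.0036 at Cd80 within 100 kb and 0.011 at Icam1 within 25 kb. Without 1 mouse, the Cd40 promoter lay between -0.089 and 0.0012 and the Icosl promoter between -0.066 and 0.025, the latter being 0.021 with the Y share covariate. None of these was called. Depth limits weak peaks most, since the least covered peak at these loci had 6.06 fragments per library.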
